A study of Mus musculus with 21 samples.

Results

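The p53 pathway was followed here through 33 genes: Trp53, which encodes p53, and 32 genes that p53 switches on or that hold it in check. They were chosen by name from what is known of the pathway, with earlier results of these data known, and are 33 of the 18193 genes that the arrays represent. For 30 of them the array has at least 1 probe set annotated with a single gene symbol, and the brightest of these over the 21 arrays, by mean, stood for the gene. Of the 30 genes, 13 had 1 such probe set and 17 had several. Trp53, Bax and Gdf15 had none and were not analysed here, so the level of the p53 transcript itself is not part of what follows. The 33 genes fall into 6 roles: p53 and its brakes, cell cycle arrest and mitosis, cell death, death receptors, DNA repair, and stress and metabolism.

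p53 is a transcription factor that is made and destroyed continuously. Mdm2 is the ubiquitin ligase that marks it for destruction, Mdm4 is the partner that blocks its activity, and DNA damage frees p53 from both. Freed p53 binds paired copies of a short motif near its targets, whose products stop the cell cycle, start apoptosis or repair DNA, and Mdm2 is itself a target, which closes a feedback loop. In embryonic stem (ES) cells p53 protein is known to be abundant, and loss of p53 activity is known to give cultured pluripotent cells a growth advantage.

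The series held 21 Affymetrix arrays of bulk mouse RNA, 3 for each of 7 groups. The androgenetic haploid ES (ahES) lines AH129-5, AH129-N1 and AH129-NC1 have a 129 Sv background and a genome that comes from sperm alone, and were sorted by flow cytometry as haploid G0/G1 cells. The diploid ES lines CS1-1 and R1, also 129 Sv, carry no stated sort, and the medium of all 5 ES lines was N2B27 supplemented with LIF and 2i. Mouse embryonic fibroblasts (MEF) came from a CD1 background and were grown in DMEM with serum, again with no stated sort. Round sperm, which are haploid male germ cells past meiosis, were sorted fresh from 129 Sv testis as haploid G0/G1 cells. No group carried a stated mutation, transgene or drug beyond the 2 inhibitors of the ES medium. Each line is 1 line, so its genome and its culture history cannot be told apart. Except in ahES minus diploid ES, p-values measure the spread between the 3 arrays of a group, which are labelled biological replicates. In ahES minus diploid ES the line was a random block, so the spread between lines of a kind enters too. In the comparison of ahES with diploid ES cells, kind of cell and sort cannot be told apart either.

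Values are log2 of the MAS5 signal plus an offset of 9.73 signal units, so a difference of 1 is a 2-fold change and low values are compressed. To pass, a gene needed a change of at least 2-fold and an adjusted p under 0.05 (limma, Benjamini-Hochberg over all genes tested). A group mean at or under the 40th percentile of its arrays, between 5.44 and 5.60 on the log2 scale, is called near background, and a fold against it is given as a lower bound. All 9 ES cell markers lay above that percentile in the ES lines, all 15 fibroblast markers did in MEF and all 12 round spermatid markers did in round sperm. Markers of other kinds did too: 8 of 8 spermatocyte markers and 6 of 9 ES cell markers on all round sperm arrays. Summed signal in round sperm was 30370 to 30940 for spermatocyte markers and 153800 to 233500 for round spermatid markers. In the ES lines, 11 (CS1-1) to 15 (AH129-NC1 and R1) of the 15 fibroblast markers lay above that percentile. Round sperm stood apart in RNA quality: the Gapdh 3' minus 5' control difference was 0.37 to 0.69 there and negative in all other groups. Results against round sperm rest on those 3 arrays alone, and in bulk RNA fewer cells of a type cannot be told from less RNA per cell.

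The first comparison asked whether haploid and diploid ES cells differ in p53 target genes. None of the 30 genes passed in ahES minus diploid ES by limma with the line as a block, where 4.35% of 12891 genes did, and none had an adjusted p under 0.05 at any size of change, where 11.7% did. At an unadjusted p under 0.05, a level at which the share of all genes was not counted here or below, 1 gene was higher and 1 lower. These were Pmaip1, which encodes the BH3-only death protein Noxa (1.12 ± 0.40, adjusted p = 0.0783), and Rrm2b, a ribonucleotide reductase subunit that supplies nucleotides for repair (-0.77 ± 0.33, adjusted p = 0.147). The median difference over the 30 genes was -0.26, against -0.03 over all genes tested. The arrays of the 2 kinds overlapped in all 30 genes, a count given here without the same count over all genes. Standard errors were wide, for example 0.52 for Cdkn1a and 1.12 for Eda2r, because lines of the same kind differed. Which gene passed depended on the choice of lines, in fits where the share of all genes was not counted. With 1 line left out, 1 gene passed each time: Eda2r without AH129-5 (1.29), Pmaip1 without AH129-N1 (1.52) or without CS1-1 (2.00), Perp without AH129-NC1 (-1.44) and Rrm2b without R1 (-1.22). Eda2r is X-linked, and 37% of X-linked genes passed as higher in ahES cells in the fit with all lines.

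**Figure D1:**
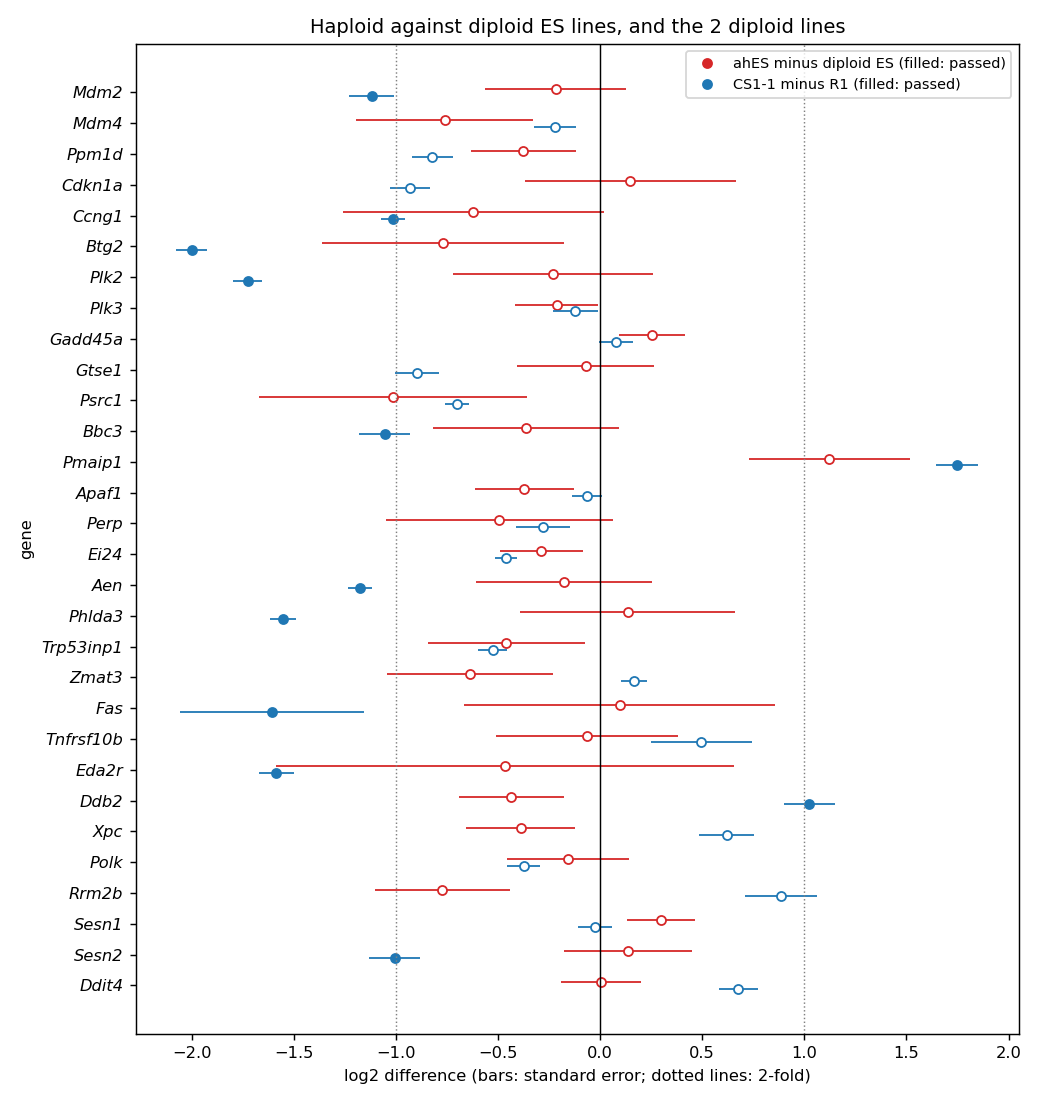
Log2 difference of the 30 genes (points, with standard errors as bars) between ahES and diploid ES lines in red and between the diploid lines CS1-1 and R1 in blue; filled points passed and dotted lines mark a 2-fold change. No red point is filled, while 2 blue points to the right and 10 to the left are.

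Among the ahES lines themselves the same genes differed widely. Of the 29 that could be tested (Fas was too low), 22 passed limma's moderated F-test over the 3 lines with a difference of at least 2-fold between some pair of lines, against 9.31% of 12427 genes. At any size of change, 28 of 29 had an adjusted p under 0.05, against 57.1%. Ordered by p among all genes tested, Eda2r stood at rank 1, Psrc1 at 2, Ccng1 at 3, Phlda3 at 6, Aen at 9, Zmat3 at 10 and Btg2 at 13. In 21 of the 22 the largest difference was AH129-5 below AH129-NC1, and in the other, Pmaip1, it was AH129-N1 below AH129-NC1.

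AH129-5 was the low line. Its mean was the lowest of the 5 ES lines in 20 of 30 genes (18.4% of all genes tested), and all 3 of its arrays lay below all 12 other ES arrays in 18 of them, where 5.52% of all genes tested showed that order. Each gene's level in a line was also set against the mean of the 5 line means. The median of this deviation over the 30 genes was -0.92 in AH129-5, 0.14 in AH129-N1, 0.59 in AH129-NC1, -0.10 in CS1-1 and 0.43 in R1. Over all 12891 genes the median lay between -0.04 and 0.03 in every line. AH129-NC1 had the highest mean in 18 genes (13.1% of all genes), R1 in 8 (20.9%) and CS1-1 in 4 (28.2%). The line that was most often lowest and the line that was most often highest were thus both haploid.

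**Figure D2:**
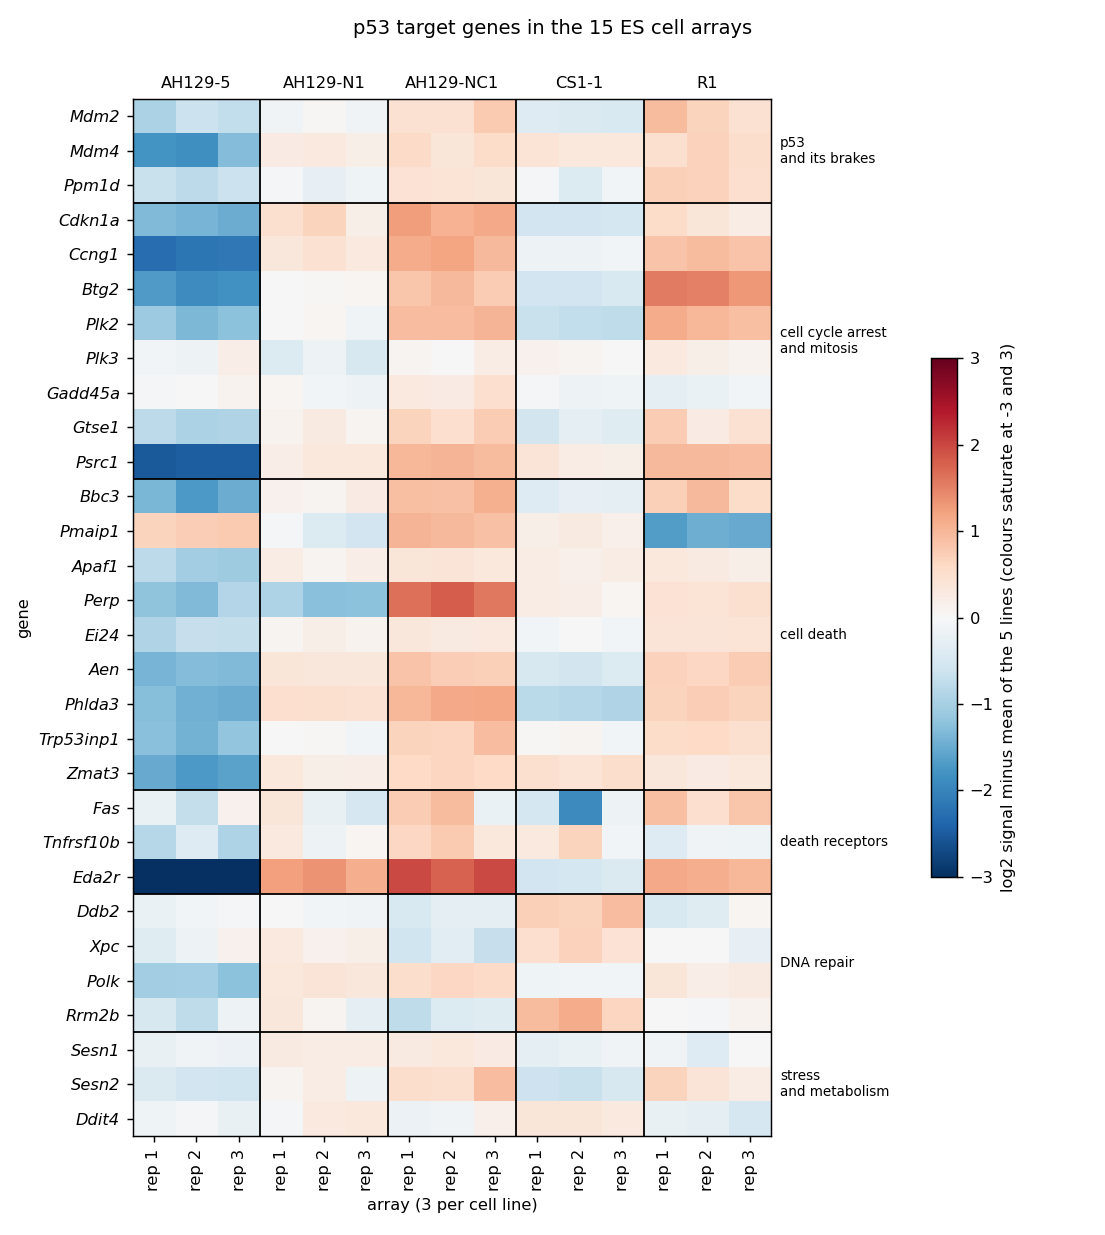
Log2 signal of 30 genes (rows, grouped by role) in the 15 ES cell arrays (columns, 3 per line) minus the mean of the 5 line means. The AH129-5 columns are blue in most rows of the first 3 roles and in Eda2r and Polk, the AH129-NC1 and R1 columns are mostly red, and the DNA repair genes Ddb2, Xpc and Rrm2b are red in CS1-1.

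The brakes on p53 were among the genes that were low in AH129-5. Mdm2 was at 10.41, 10.71 and 10.61 in AH129-5, 11.24, 11.38 and 11.25 in AH129-N1 and 11.81, 11.79 and 12.13 in AH129-NC1. It was at 10.95, 10.91 and 10.89 in CS1-1 and 12.29, 12.01 and 11.81 in R1. The AH129-5 arrays did not overlap those of any other line, although the step to CS1-1 was small (-0.34 ± 0.11, short of 2-fold), while the difference from AH129-NC1 passed (-1.34 ± 0.11, 2.53-fold, adjusted p = 4.64e-08, limma). Mdm4 was at 9.09, 9.05 and 9.58 in AH129-5 and between 11.05 and 11.57 on the other 12 ES arrays. It passed against each of the other 4 lines, with log2 differences of -1.87 from AH129-N1, -2.14 from AH129-NC1, -1.99 from CS1-1 and -2.21 from R1. A further Mdm4 probe set also gave lower values in AH129-5 against each line (-1.57 to -2.08), and 2 dim ones gave differences between -0.58 and 0.25. Ppm1d, the Wip1 phosphatase that switches p53 signalling off, was at 8.40, 8.31 and 8.43 in AH129-5, 9.01, 8.84 and 8.95 in AH129-N1 and 9.51, 9.49 and 9.44 in AH129-NC1. Its difference from AH129-NC1 passed (-1.10 ± 0.099), and became -0.81 when its probe sets were averaged.

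In 6 of the 8 genes of cell cycle arrest and mitosis, all AH129-5 arrays lay below the other 12 ES arrays. Cdkn1a encodes p21, the inhibitor of cyclin-dependent kinases through which p53 halts the cycle. It was at 10.67, 10.60 and 10.50 in AH129-5, 12.49, 12.66 and 12.18 in AH129-N1 and 13.26, 13.04 and 13.14 in AH129-NC1. It was at 11.42, 11.44 and 11.48 in CS1-1 and 12.54, 12.36 and 12.23 in R1, so that AH129-N1 and R1 overlapped while AH129-5, CS1-1 and AH129-NC1 each stood clear of the rest. AH129-5 was 5.88-fold below AH129-NC1 (-2.56 ± 0.098, adjusted p = 1.56e-12, limma). Ccng1, cyclin G1, a target that is known to feed back on p53, was at 10.37, 10.48 and 10.49 in AH129-5, 12.98, 13.10 and 12.94 in AH129-N1 and 13.76, 13.83 and 13.61 in AH129-NC1. It was at 12.48, 12.48 and 12.56 in CS1-1 and 13.49, 13.58 and 13.49 in R1. The AH129-5 arrays lay far under every other ES array, with a difference of -2.06 ± 0.059 from the nearest line, CS1-1, and of -3.29 ± 0.059 from AH129-NC1 (9.76-fold).

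Psrc1, a microtubule-binding protein of the mitotic spindle, was at 8.81, 8.84 and 8.85 in AH129-5. On the other 12 ES arrays it lay between 11.49 and 12.35. The difference from AH129-NC1 was -3.47 ± 0.058 (11.1-fold) and that from CS1-1 was -2.74 ± 0.058. Btg2, an antiproliferative gene, was at 8.73, 8.53 and 8.60 in AH129-5, 10.42, 10.45 and 10.47 in AH129-N1 and 11.25, 11.38 and 11.17 in AH129-NC1. It was at 9.84, 9.84 and 9.96 in CS1-1 and 11.98, 11.94 and 11.72 in R1, the line with the highest Btg2. Plk2, a polo-like kinase induced by stress, was at 9.92, 9.66 and 9.79 in AH129-5, 11.02, 11.07 and 10.92 in AH129-N1 and 11.94, 11.95 and 12.04 in AH129-NC1, with differences of -1.21 ± 0.071 and -2.18 ± 0.071. Gtse1, a G2 and S phase protein that is known to restrain p53, ran from 9.12 to 9.27 in AH129-5, from 10.15 to 10.32 in AH129-N1 and from 10.56 to 10.83 in AH129-NC1. These differences passed (-1.04 ± 0.11 and -1.53 ± 0.11). The other members of the role did not share the pattern. Plk3 ran only from 8.33 to 9.10 over the 15 ES arrays. Gadd45a, a stress sensor that p53 and other factors switch on, ran from 9.52 to 10.33, and was at 9.76, 9.82 and 9.92 in AH129-5, level with AH129-N1 (0.08 ± 0.085, adjusted p = 0.478, limma).

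**Figure D3:**
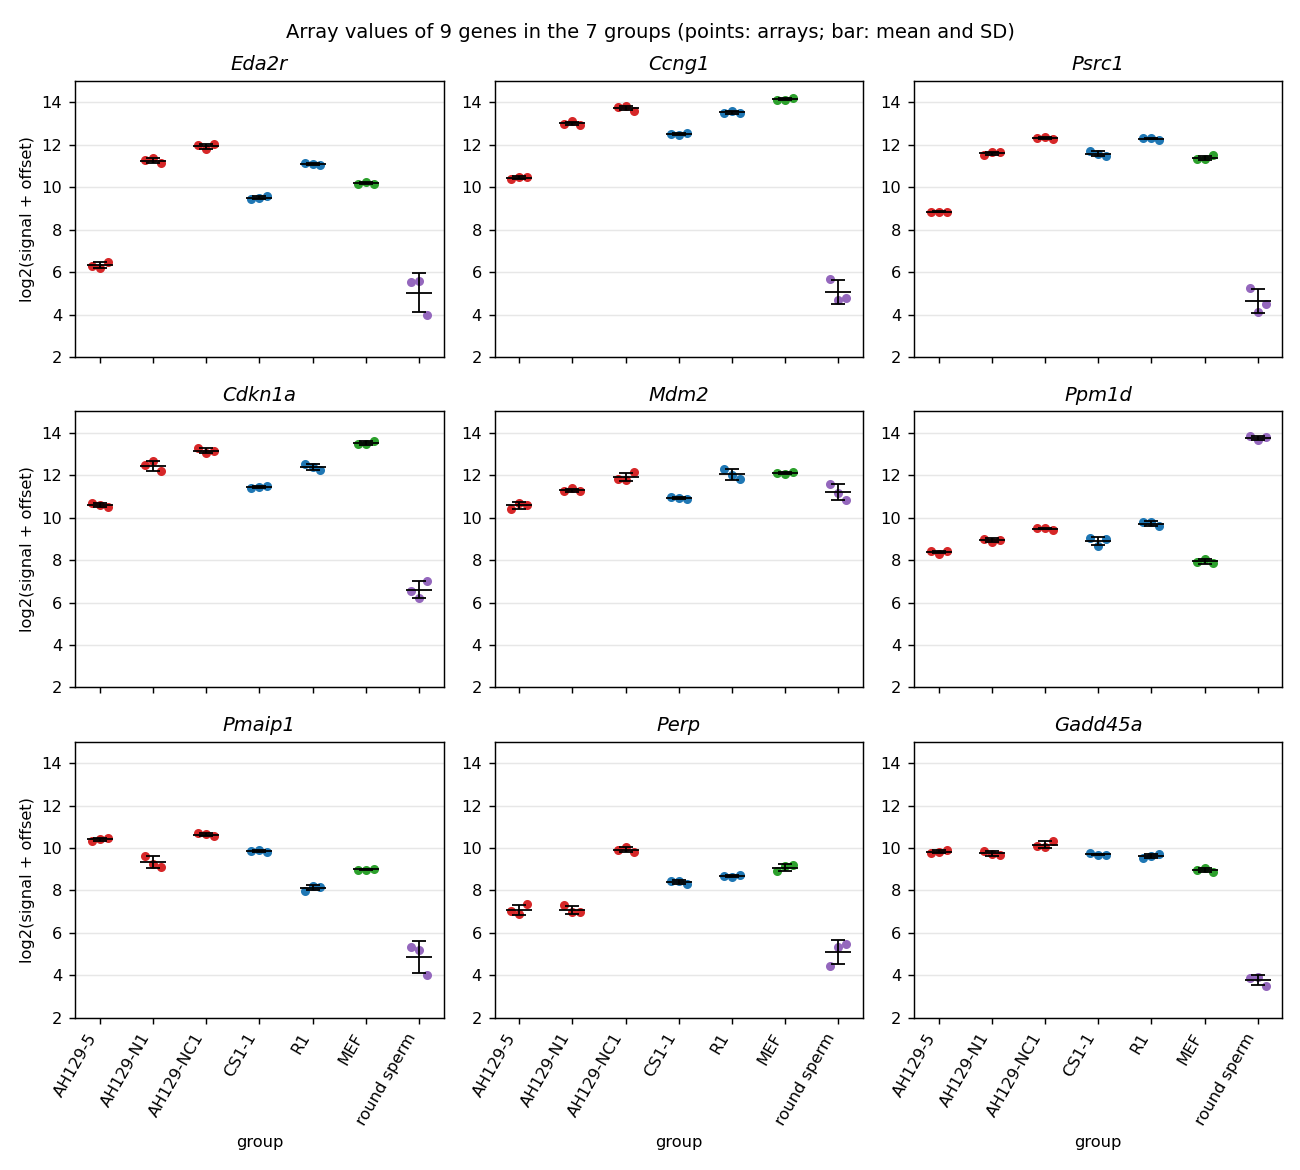
Log2 signal of 9 genes on each array (points) in the 7 groups, with the group mean and SD as bars; ahES lines are red, diploid ES lines blue, MEF green and round sperm purple. AH129-5 lies under the other ES lines in Eda2r, Ccng1, Psrc1, Cdkn1a, Mdm2 and Ppm1d but not in Pmaip1, Perp or Gadd45a, and Ppm1d, by the probe set shown, is the one gene of the 9 that is highest in round sperm.

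All AH129-5 arrays also lay below the other ES arrays in 7 of the 9 cell death genes. Phlda3, an inhibitor of Akt signalling, was at 9.35, 9.19 and 9.16 in AH129-5, 11.15, 11.11 and 11.09 in AH129-N1 and 11.63, 11.77 and 11.81 in AH129-NC1 (-1.88 ± 0.064 and -2.50 ± 0.064). CS1-1, at 9.83, 9.78 and 9.74, was the second lowest line. Aen, an apoptosis-enhancing nuclease, was at 9.57, 9.66 and 9.65 in AH129-5, 11.33, 11.31 and 11.30 in AH129-N1 and 11.82, 11.70 and 11.68 in AH129-NC1 (-1.69 ± 0.059 and -2.11 ± 0.059). Zmat3, a zinc finger RNA-binding protein and p53 target, was at 9.14, 8.94 and 9.05 in AH129-5 and between 10.83 and 11.31 on all other ES arrays (-2.23 ± 0.064 from AH129-NC1, and -1.91 ± 0.064 from R1). Here the other 4 lines lay close together and AH129-5 alone stood off. Bbc3, which encodes the BH3-only protein Puma, was at 6.87, 6.53 and 6.76 in AH129-5, 8.37, 8.32 and 8.49 in AH129-N1 and 9.14, 9.12 and 9.31 in AH129-NC1 (-1.68 ± 0.13 and -2.47 ± 0.13). Trp53inp1, a nuclear protein that promotes p53 activity, was at 11.81, 11.63 and 11.89 in AH129-5, 13.07, 13.09 and 12.99 in AH129-N1 and 13.72, 13.72 and 13.97 in AH129-NC1 (-1.27 ± 0.071 and -2.03 ± 0.071). Apaf1, the scaffold of the apoptosome, ran from 9.01 to 9.27 in AH129-5 and from 10.14 to 10.46 on the other ES arrays. Ei24, a membrane protein induced by p53, ran from 11.05 to 11.26 in AH129-5 and from 11.87 to 12.37 on the others. Both passed against AH129-NC1 (-1.32 ± 0.075 for Apaf1 and -1.07 ± 0.054 for Ei24).

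Pmaip1 and Perp departed from this order. Pmaip1 was at 10.34, 10.40 and 10.46 in AH129-5, 9.63, 9.26 and 9.09 in AH129-N1 and 10.70, 10.64 and 10.55 in AH129-NC1. It was at 9.85, 9.93 and 9.83 in CS1-1 and 7.99, 8.21 and 8.16 in R1, so R1 and not AH129-5 was the low line. AH129-5 was higher than R1 (2.28 ± 0.10, 4.86-fold) and than AH129-N1 (1.08 ± 0.10, and 0.92 with arrays centred on their medians). Perp, a desmosome protein with a part in apoptosis, was at 7.01, 6.90 and 7.35 in AH129-5 and between 6.98 and 7.32 in AH129-N1, which overlapped, and at 9.89, 10.06 and 9.81 in AH129-NC1. Both low lines passed against AH129-NC1 (-2.83 ± 0.13 and -2.82 ± 0.13), with CS1-1 (8.28 to 8.46) and R1 (8.63 to 8.71) between them.

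The largest difference among the 30 genes belonged to a death receptor. Eda2r, an X-linked receptor of the TNF receptor family and a known p53 target, was at 6.30, 6.20 and 6.50 in AH129-5, 11.26, 11.37 and 11.13 in AH129-N1 and between 11.80 and 12.01 in AH129-NC1. It was at 9.46, 9.49 and 9.59 in CS1-1 and 11.15, 11.11 and 11.03 in R1. AH129-5 stood 30.3-fold below AH129-N1 (-4.92 ± 0.086), 48.6-fold below AH129-NC1 (-5.60 ± 0.086), 27.2-fold below R1 (-4.76 ± 0.086) and 9.06-fold below CS1-1 (-3.18 ± 0.086). Adjusted p was 5.04e-20 against AH129-NC1 (limma), the smallest of all 12195 genes tested in that pair. The single probe set of Eda2r was still above the near-background level in AH129-5. Tnfrsf10b, the murine TRAIL receptor, was dim in all ES lines, from 5.48 to 6.03 in AH129-5 and from 6.71 to 7.19 in AH129-NC1 (-1.29 ± 0.25). That call fell short of 2-fold with an offset of 50 signal units. Fas lay between 3.50 and 6.35 on the 15 ES arrays, dim throughout, and was not tested among the ahES lines.

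The DNA repair genes split. Polk, the translesion polymerase kappa, ran from 7.99 to 8.19 in AH129-5, from 9.52 to 9.60 in AH129-N1 and from 9.74 to 9.83 in AH129-NC1. Both differences passed (-1.45 ± 0.081 and -1.67 ± 0.081). Ddb2 and Xpc, which recognise ultraviolet damage for nucleotide excision repair, and Rrm2b did not pass among the ahES lines, and their highest line was CS1-1. In AH129-5, Ddb2 was at 8.30, 8.42 and 8.47, against 8.05, 8.22 and 8.22 in AH129-NC1. Among stress and metabolism genes, Sesn2, a sestrin that restrains mTOR signalling, ran from 8.96 to 9.13 in AH129-5 and from 10.05 to 10.48 in AH129-NC1 (-1.18 ± 0.12). CS1-1 was equally low, from 8.90 to 9.08. Sesn1, its relative, and Ddit4, a further mTOR inhibitor that also responds to hypoxia, stayed short of 2-fold, with largest differences between ahES lines of -0.45 and -0.33.

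**Figure D4:**
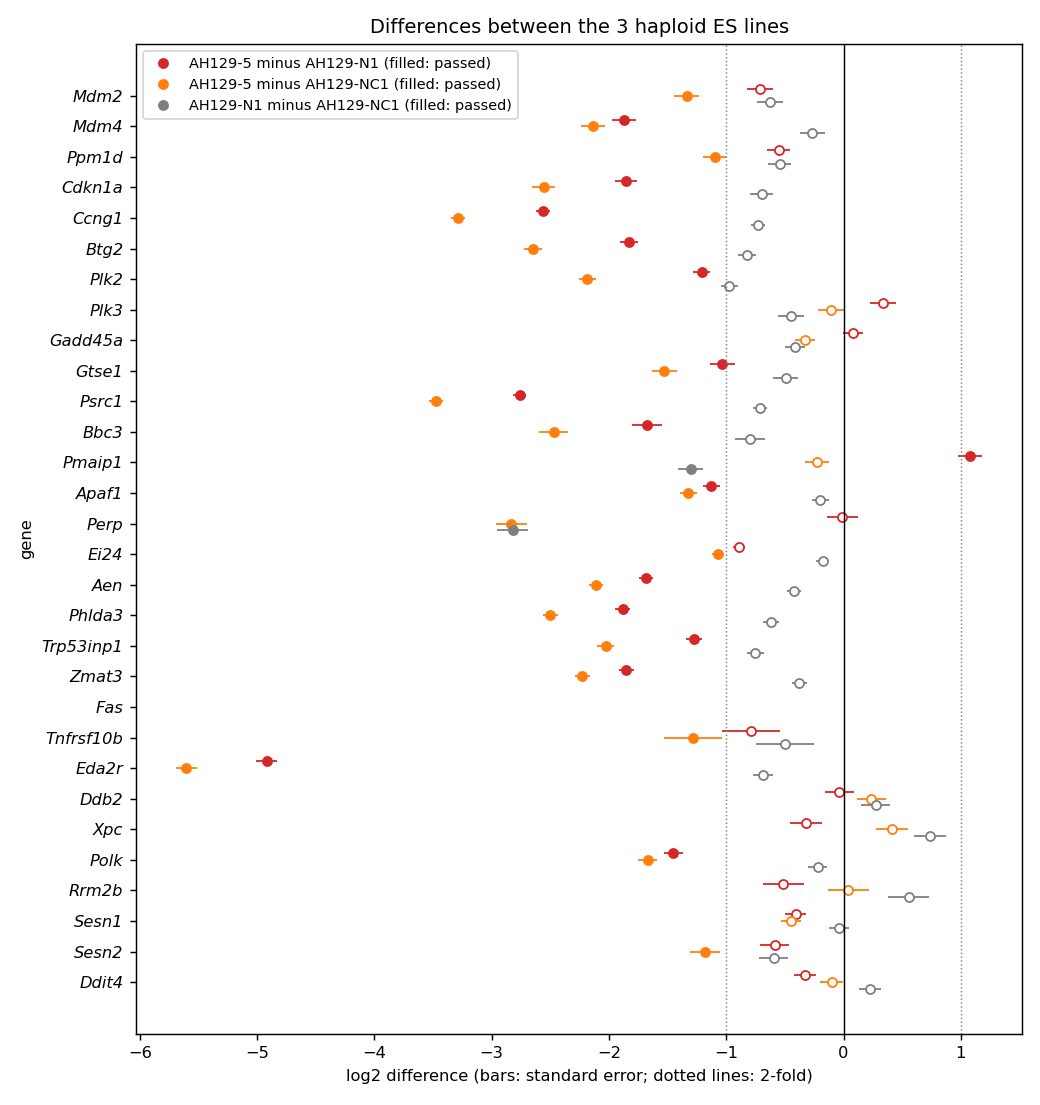
Log2 difference between pairs of ahES lines for the genes tested (points, with standard errors as bars); filled points passed and dotted lines mark a 2-fold change. AH129-5 minus AH129-NC1 (orange) and AH129-5 minus AH129-N1 (red) lie far to the left for most genes, down to -5.60 for Eda2r, while AH129-N1 minus AH129-NC1 (grey) has 2 filled points, Perp and Pmaip1.

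Pairs of lines were then compared one by one, a set of comparisons added after the data were examined. They share arrays, so their counts are not independent. Against AH129-N1, 15 of 29 genes passed as lower in AH129-5 (background 1.46%) and 1, Pmaip1, as higher (3.85%). In this pair Apaf1, Mdm4, Plk2 and Trp53inp1 lost their calls when probe sets of a gene were averaged, and Gtse1 with an offset of 50 signal units. Against AH129-NC1, 21 of 29 passed as lower (2.14%) and none as higher (3.22% of all genes, limma; 1 gene was higher at an unadjusted p under 0.05). Against CS1-1, 13 of 29 passed as lower (5.79%), and against R1, 19 of 30 (3.94%) with Pmaip1 higher (7.32%). AH129-N1 and AH129-NC1 differed less: 2 of 29 passed, Perp and Pmaip1, both lower in AH129-N1 (2.14%). At any size of change, 22 of those 29 were lower in AH129-N1, where 15.8% of all genes were. Between AH129-NC1 and R1, a haploid and a diploid line, 2 of 30 passed, Perp (1.25 ± 0.13) and Pmaip1 (2.51 ± 0.10), both higher in AH129-NC1 (4.82%). Centring on array medians moved the median of all genes in AH129-5 by -0.15 against AH129-N1 and AH129-NC1 and by -0.13 against CS1-1. With arrays so centred, 16 genes passed as lower than in AH129-N1 and none as higher. Lower than in AH129-NC1 were 21, and lower than in CS1-1 were 14. The share of all genes was not counted under this scaling, so the shares above do not apply to these counts.

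Other lists were set beside this result. Of 20 S phase genes and 20 G2/M genes, none passed among the ahES lines (limma), although 14 and 15 had a p under 0.05, unadjusted or adjusted, at smaller sizes of change, where 57.1% of all genes had an adjusted one. The 9 ES cell markers held no pass among the ahES lines either, although 7 had an adjusted p under 0.05 (limma). Their summed signal was 99820 to 108000 in AH129-5 and 107500 to 122400 in the other ES lines. Against CS1-1, the ES cell marker Tdgf1 (2.08-fold) and the G2/M gene Aurkb (2.37-fold) passed as lower in AH129-5, where 5.79% of all genes did. Against R1, no gene of these lists passed. The fibroblast markers gave a summed signal of 45520 to 50670 in AH129-5, 41530 to 46320 in AH129-N1, 42190 to 43280 in AH129-NC1, 23230 to 24160 in CS1-1 and 52930 to 54190 in R1. Between AH129-5 and AH129-NC1, 0 of 15 passed (limma; 7 higher and 5 lower at an unadjusted p under 0.05). Prrx1, Tagln and Thy1 passed as higher in AH129-5 than in AH129-N1 (2.25-fold, 2.06-fold and 2.21-fold; 3 of 14, against 3.85% of all genes). Against CS1-1, 12 of 14 passed as higher in AH129-5, up to 15.8-fold for Postn and 12.9-fold for Col5a2, where 9.85% of all genes did. Against R1, Acta2 and Tagln were lower in AH129-5 (3.10-fold and 3.42-fold; 2 of 15, against 3.94%). Summed markers of Sertoli and Leydig cells (1240 to 1456, against 577.8 to 1181 in the other ES lines) and of blood cells (2239 to 2562, against 1142 to 1920) were highest in AH129-5. Among the first, Clu passed as higher in AH129-5 than in AH129-NC1 (2.29-fold) and CS1-1 (2.37-fold), and Cyp11a1 than in CS1-1 (2.43-fold) and R1 (2.74-fold). Among the second, Cd68 passed against AH129-N1 (2.93-fold), and Lyz2 and Csf1r against CS1-1 (2.51-fold and 2.14-fold) and R1 (2.04-fold and 2.40-fold). In AH129-5, 5 of the 9 Sertoli and Leydig cell genes (Sox9, Wt1, Amh, Cyp17a1 and Hsd3b1) and 4 of the 7 blood cell genes (Ptprc, Cd3e, Cd79a and Hba-a1) were near background. For none of the lists in this paragraph was the part in the result tested.

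Genes further along the pathway were counted too. Of 30 genes that regulate p53, 1 passed among the ahES lines, where 9.31% of all genes did: Trp73, a relative of p53 (-1.41 as AH129-5 minus AH129-NC1, adjusted p = 0.000196, limma). Of 52 other known p53 targets, 16 passed, against the same 9.31%, 14 with the lower level in AH129-5 and 2, Thbs1 and Tgfa, with the higher. The 4 with the smallest adjusted p, named after their values were seen, were the thiamine transporter Slc19a2 (-3.04), adenylate kinase Ak1 (-2.09), the xylulose reductase Dcxr (-2.09) and the mitotic protein Ckap2 (-1.57), all as AH129-5 minus AH129-NC1. In ahES minus diploid ES, 0 of the 30 regulators passed (limma). At an unadjusted p under 0.05, with no share of all genes counted at that level, 2 regulators were higher and 5 lower. Of the 52 targets 3 passed, a share near the 4.35% of all genes. The 3 were Ier5 (1.30 ± 0.26), higher in ahES cells, and Dgka (-1.41 ± 0.27) and the repair gene Mgmt (-2.31 ± 0.63), lower. Mgmt also differed between the ahES lines (-3.46 as AH129-5 minus AH129-NC1).

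p53 recognises pairs of a palindromic half-site. The RefSeq promoter windows of GRCm38.p6, from 250 bases before to 50 after each annotated start, were searched for the consensus p53 half-site, which reads alike on both strands. Windows were held for 25 of the 33 genes. A half-site was found in 12 of these 25, and in 9.55% of the 27025 genes with windows. A pair of half-sites with at most 13 bases between them was found for 1 of the 25, Cdkn1a, and for 20 of all 27025 genes. Of the 17 genes with a window that passed among the ahES lines, 8 held a half-site, and of the 4 that did not pass, 2 did. Eda2r, Psrc1, Btg2 and Phlda3 held none in this window. The stretches below are shown because they carry the motif in genes that were low in AH129-5 and, for Gadd45a, in one that was not; capitals mark the half-sites, and each stretch is written 5′ to 3′ on the strand of its gene. They lie at chr17:29090871-29090972 (Cdkn1a, plus strand, its pair 12 bases apart), chr10:117710900-117710979 (Mdm2, minus), chr11:40755427-40755506 (Ccng1, minus), chr11:85311087-85311166 (Ppm1d, plus), chr9:36797335-36797379 (Ei24, minus) and chr6:67037408-67037482 (Gadd45a, minus), all upstream of the annotated start.
Cdkn1a: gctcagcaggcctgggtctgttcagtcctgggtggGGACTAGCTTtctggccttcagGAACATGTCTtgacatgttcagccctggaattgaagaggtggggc
Mdm2: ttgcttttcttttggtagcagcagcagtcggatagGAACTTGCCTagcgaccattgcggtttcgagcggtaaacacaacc
Ccng1: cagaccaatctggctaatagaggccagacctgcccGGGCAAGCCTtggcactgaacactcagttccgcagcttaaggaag
Ppm1d: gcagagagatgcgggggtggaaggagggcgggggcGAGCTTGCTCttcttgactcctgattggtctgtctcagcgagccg
Ei24: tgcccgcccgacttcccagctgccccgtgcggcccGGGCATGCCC
Gadd45a: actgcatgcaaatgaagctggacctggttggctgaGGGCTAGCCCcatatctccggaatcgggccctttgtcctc
A match is a description of these letters, and a window without one says only that the letters are not there. Only exact matches were counted. A copy that is 1 base off stays in small letters, as directly beside a marked half-site in Cdkn1a and in Ccng1. Between AH129-5 and AH129-NC1, Cdkn1a, with its pair, differed 5.88-fold. As AH129-5 minus AH129-NC1, analysed genes with 1 exact half-site ran from -0.33 (Gadd45a, 1.26-fold) to -3.29 (Ccng1, 9.76-fold). Analysed genes with a window but no exact half-site ran from -0.10 (Ddit4) to -5.60 (Eda2r, 48.6-fold). The 2 ranges overlap, and a link between motif and size of difference was not tested.

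The 2 diploid lines differed as well. Between CS1-1 and R1, 12 of 30 genes passed, 2 higher and 10 lower in CS1-1, against 9.86% of 12100 genes in either direction, 4.17% as higher and 5.69% as lower. Lower in CS1-1 were Btg2 (-2.00 ± 0.077), Plk2 (-1.73 ± 0.071), Eda2r (-1.58 ± 0.086), Phlda3 (-1.55 ± 0.064), Aen (-1.18 ± 0.059), Mdm2 (-1.12 ± 0.11), Bbc3 (-1.05 ± 0.13), Ccng1 (-1.01 ± 0.059), Sesn2 (-1.01 ± 0.12) and Fas. Fas was at 4.86, 3.50 and 5.25 in CS1-1, near background, and 6.31, 5.90 and 6.22 in R1, so R1 was at least 1.63-fold higher. Cdkn1a was short of 2-fold (-0.93 ± 0.098, adjusted p = 4.36e-07, limma). Higher in CS1-1 were Pmaip1 (1.75 ± 0.10, 3.36-fold) and Ddb2, at 9.22, 9.18 and 9.43 in CS1-1 and 8.05, 8.15 and 8.55 in R1 (1.02 ± 0.12). The ranges of the 2 lines did not overlap in any of the 12, which had been picked for a large difference between these same arrays. The median difference over the 30 genes was -0.49, against 0.02 over all genes tested. The calls of Bbc3, Ccng1, Ddb2, Mdm2 and Sesn2, all close to 2-fold, were each lost without some single array, and the count was 8 with an offset of 50 signal units.

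In the same pair, 13 of 15 fibroblast markers were lower in CS1-1 (5.69% of all genes; median -3.13), with a summed signal of 23230 to 24160 there, 52930 to 54190 in R1 and 254800 to 261700 in MEF. Their part in the difference of the p53 targets was not tested. The ES cell markers (0 of 9), S phase genes (0 of 20) and G2/M genes (0 of 20) held no pass (limma), while 3, 9 and 13 of them had an adjusted p under 0.05 at any size, where 49.7% of all genes did. Of 29 regulators tested, Cdkn2a, whose product Arf sequesters Mdm2, was the 1 that passed, and was lower in CS1-1 (-1.10 ± 0.13, adjusted p = 9.45e-07, limma). Of 51 other targets, 10 passed, all lower in CS1-1, against 5.69% of all genes. The 4 with the smallest adjusted p were the matrix protein gene Thbs1 (-3.36 ± 0.13), Ckap2 (-1.16 ± 0.066), the transcriptional cofactor Sertad1 (-1.45 ± 0.086) and Ak1 (-1.03 ± 0.067).

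MEF, the differentiated comparison, did not stand to one side of ES cells. Of 30 genes, 12 passed in ES minus MEF, 6 higher and 6 lower in ES cells. Of all 13527 genes tested, 42% passed, 21.3% as higher and 20.6% as lower. The shares of the 30 genes were thus near those of all genes, so these counts do not set the pathway apart from other genes. Lower in ES cells were Fas, Cdkn1a, Ccng1, Phlda3, Plk2 and Polk. Fas was at 8.53, 8.96 and 9.19 in MEF and near background in ES cells (median 5.25), at least 8.83-fold lower. Cdkn1a was at 13.46, 13.46 and 13.60 in MEF and from 10.50 to 13.26 (median 12.23) on the ES arrays (-1.50 ± 0.11). Ccng1 was at 14.10, 14.13 and 14.20 in MEF and from 10.37 to 13.83 (median 12.98) on the ES arrays (-1.50 ± 0.13). For both genes even the highest ES line, AH129-NC1, stayed under all MEF arrays. Phlda3, at 12.19, 12.12 and 12.27 in MEF (-1.55 ± 0.099), Plk2, at 12.42, 12.55 and 12.38 (-1.43 ± 0.11), and Polk (-1.38 ± 0.11) were the other lower genes.

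Higher in ES cells were Ddb2, at 6.82, 7.29 and 6.66 in MEF and from 8.05 to 9.43 (median 8.42) on the ES arrays (1.58 ± 0.16), and Trp53inp1, at 11.75, 11.64 and 11.63 in MEF (1.39 ± 0.12). So were Mdm4, at 9.54, 9.75 and 9.34 in MEF (1.33 ± 0.09), Sesn1, at 8.42, 8.41 and 8.44 (1.15 ± 0.12), Ppm1d, at 7.92, 8.04 and 7.84 (1.14 ± 0.077), and Gtse1 (1.11 ± 0.12). In Trp53inp1, Mdm4 and Gtse1 the ES arrays overlapped those of MEF. For Mdm4 the overlap came from AH129-5, at 9.05 to 9.58, since the other ES arrays lay at 11.05 or above. Mdm2 was at 12.09, 12.05 and 12.16 in MEF, within the range of R1, and short of 2-fold (-0.75 ± 0.11, adjusted p = 4.33e-06, limma). The other 17 genes also fell short of passing, between -0.92 for Tnfrsf10b and 0.90 for Xpc. Calls of Mdm4, Plk2 and Polk were lost when probe sets of a gene were averaged, and that of Mdm4 also without probe sets ending in _x_at or _s_at. Ppm1d lost its call with only ahES lines on the ES side, and Sesn1 with only diploid ES lines there.

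Of the 30 regulators of p53, 13 passed as higher in ES cells, against 21.3% of all genes, and 1 as lower, against 20.6%. The 4 with the smallest adjusted p were the checkpoint kinase Chek1 (2.62 ± 0.069), Hipk2, a kinase that phosphorylates p53, which was the lower one (-2.88 ± 0.094), Usp7, a deubiquitinase of p53 and Mdm2 (1.48 ± 0.048), and the deacetylase Sirt1 (2.69 ± 0.11). Of 52 other targets, 9 were higher and 18 lower (21.3% and 20.6% of all genes). Those with the smallest adjusted p were the pluripotency factor Klf4 (2.08 ± 0.056), Casp8 (-3.39 ± 0.094), Ak1 (-1.79 ± 0.056) and Ier5 (-3.42 ± 0.11). Of the 20 S phase genes 14, and of the 20 G2/M genes 12, were higher in ES cells, against 21.3% of all genes, and their part in the difference of genes such as Gtse1 was not tested.

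**Figure D5:**
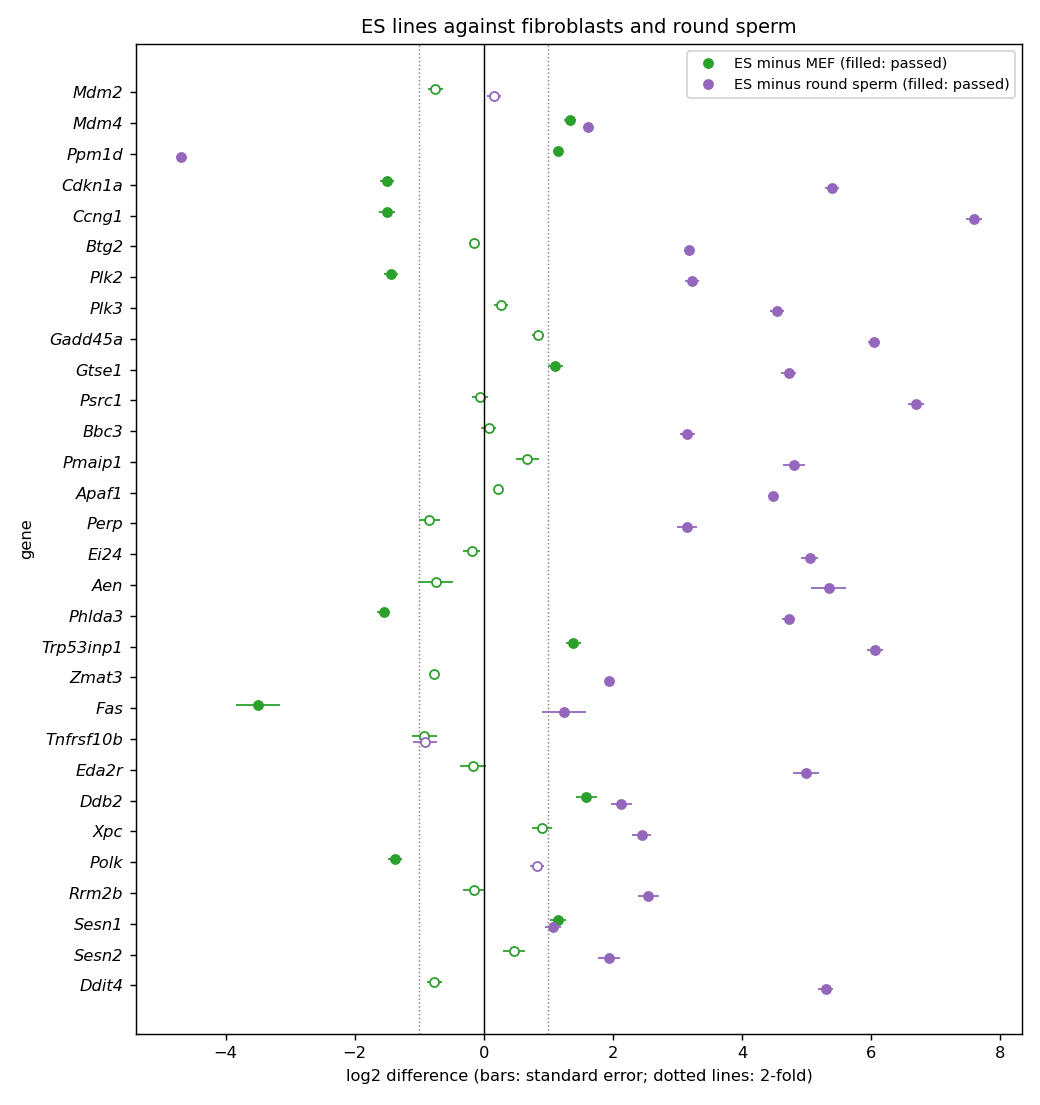
Log2 difference of the 30 genes (points, with standard errors as bars) between the mean of the 5 ES lines and MEF in green or round sperm in purple; filled points passed and dotted lines mark a 2-fold change. The green points lie on both sides of 0, from -3.50 to 1.58, while the purple points lie to the right of 0 except Ppm1d at -4.69 and Tnfrsf10b at -0.91.

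In round sperm most of the pathway was dim. Of 30 genes, 26 passed as higher in ES cells, against 40.4% of 14993 genes, and 1, Ppm1d, as lower, against 31.8%. The median difference was 3.20, against 0.33 over all genes tested. Ccng1 was at 5.70, 4.67 and 4.79 in round sperm, near background, and ES cells were at least 137-fold higher. Psrc1, at 5.23, 4.12 and 4.51, and Gadd45a, at 3.89, 3.92 and 3.49, were near background too, with ES cells at least 56.3-fold and 19.8-fold higher. Trp53inp1 was at 6.40, 7.33 and 7.27 in round sperm (6.06 ± 0.12, 66.7-fold), and Cdkn1a at 6.56, 6.23 and 7.02 (5.40 ± 0.11, 42.1-fold). The other 21 genes that passed as higher differed by 1.07 (Sesn1) to 5.34 (Aen). Sesn1 lost its call under 5 alternative settings, and also when either of 2 single arrays was left out.

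Ppm1d ran the other way. It was at 13.86, 13.66 and 13.78 in round sperm, from 8.31 to 9.78 on the 15 ES arrays and at 7.92, 8.04 and 7.84 in MEF. Round sperm was 25.7-fold above ES cells (-4.69 ± 0.077 as ES minus round sperm, adjusted p = 4.76e-23, limma) and 56.9-fold above MEF (5.83 ± 0.099). The second Ppm1d probe set did not show this: its differences were 0.10 for ES minus round sperm and 0.79 for round sperm minus MEF. Other genes had probe sets that parted in the same contrast. The main Mdm4 probe set was lower in round sperm than in ES cells (1.62 ± 0.09), while its other 3 were higher there (-1.25 to -2.56 as ES minus round sperm). For Sesn1, 3 probe sets gave 1.02 to 1.16 and a dim one -0.61. Mdm2 (from 10.82 to 11.59 in round sperm), Tnfrsf10b and Polk did not pass.

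Against MEF, 24 genes were lower in round sperm (background 41.8%) and Ppm1d was higher (34.3%). The 5 largest falls from MEF to round sperm were in Ccng1 (at least 388-fold), Cdkn1a (-6.90 ± 0.14), Psrc1 (at least 58.8-fold), Phlda3 (-6.27 ± 0.13) and Aen (-6.09 ± 0.35). Mdm2, Mdm4, Tnfrsf10b, Ddb2 and Sesn1 did not pass. Polk, lower by its main probe set (-2.20 ± 0.14), was higher by the other (3.35). Spread within round sperm was wide, for instance 3.97 to 5.59 for Eda2r and 4.22 to 6.47 for Aen.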

How the data were processed

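Per the labels' protocols, RNA was extracted with TRIZOL and labelled with a 3' IVT kit. The deposited values were log2 MAS5 signals of 45101 probe sets, and the submitters' processing notes name MAS5 with no version; the base was read from the values, whose 2% trimmed mean was 500 signal units on each array. From them signals were recovered, an offset of 9.73 (the arrays' 20th percentiles, median) was added and log2 taken again. Probe sets with a single symbol in the platform annotation (34945, against 932 with several and 9160 with none) gave 18193 genes. Genes were tested where all 3 arrays of a compared group exceeded their array's 40th percentile, with limma 3.58.1 (trend and robust moderation, 2-sided; statmod 1.5.0, R 4.3.3). Lines were a random block (correlation 0.687) for ahES minus diploid ES; the other fits had a mean per group, over the 15 ES arrays or all 21. The members and lists were chosen with earlier results of these data known. Named were genes that passed between ES lines, and the 5 largest changes each way against MEF and round sperm. Errors of differences are standard errors. The workflow was tested on simulated data. Precision is limited by 3 arrays per group. Promoters came from RefSeq (GRCm38.p6).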

Additional observations from a re-analysis of the deposited data

How the results depend on the processing

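The count in ahES minus diploid ES was 0, and 0 to 0 over the settings that left out 1 array. It was 1 without the line block (Pmaip1, 1.12, adjusted p = 0.0272, limma) and 1 with each single line left out: without AH129-5 (Eda2r, 1.29, adjusted p = 0.0370), AH129-N1 (Pmaip1, 1.52, adjusted p = 0.0107), AH129-NC1 (Perp, -1.44, adjusted p = 0.00294), CS1-1 (Pmaip1, 2.00, adjusted p = 0.00165) and R1 (Rrm2b, -1.22, adjusted p = 0.0257). The share of all genes was not counted in these fits. Leaving out 1 array gave 22 to 22 genes among the ahES lines, 9 to 13 for CS1-1 minus R1 and 12 to 13 for ES minus MEF. It gave 26 to 29 for ES minus round sperm and 25 to 26 for round sperm minus MEF. For the added pairs it gave 15 to 16 (AH129-5 minus AH129-N1), 21 to 21 (minus AH129-NC1), 11 to 13 (minus CS1-1), 20 to 21 (minus R1), 2 to 3 (AH129-N1 minus AH129-NC1) and 2 to 2 (AH129-NC1 minus R1). With the mean over probe sets, Mdm4 in ES minus round sperm turned from 1.62 to -0.892, and to -2.56 without probe sets ending in _x_at or _s_at; Polk in round sperm minus MEF turned from -2.20 to 0.573. All other counts, under other scaling, offsets, filters, probe set rules and fits, stayed within 1.5 times. Centring on medians moved the median of all genes by -0.121 in ES minus round sperm and 0.106 in round sperm minus MEF, and quantile normalization by -0.223 and 0.316. The replicate numbers did not pair the arrays. With group means taken out, same-numbered arrays of different groups had correlations of -0.054 to 0.035, and 5 of 21 correlated best with their own number. With the replicate number as a block the counts were 0, 12, 22, 12, 27 and 25 for ahES minus diploid ES, CS1-1 minus R1, the ahES lines, ES minus MEF, ES minus round sperm and round sperm minus MEF, as without it. Dim probe sets such as those of Fas and Tnfrsf10b lie close to background, and their differences are the least certain.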
